A study of Mus musculus with 4 samples.

Results

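The replication-dependent histone genes were taken from the deposited gene annotation as the protein-coding genes whose names start with Hist1h, Hist2h, Hist3h or Hist4h. The rule gave 68 genes of the 22159 protein-coding genes and 46078 genes in all. Of these members, 6 encode linker histone H1, 19 encode H2A, 18 encode H2B, 12 encode H3 and 13 encode H4. All values below describe annotated gene models and reference sequences on the mouse build GRCm38, and 0 columns of the file hold a value of a library.

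The study prepared polyA RNA from bone marrow-derived macrophages of C57/BL6 mice, which were grown with M-CSF at 50 ng/mL and held in a pressure chamber for 6 h. The WT_Static and WT_Cyclic groups carried floxed Piezo1 alleles without Cre, and the KO_Static and KO_Cyclic groups carried the floxed alleles with LysM Cre, which recombines in myeloid cells. Static groups were held at constant pressure, and cyclic groups under a pressure that oscillated with an amplitude of about 15 mmHg. Each of the 4 groups had 1 library. The labels used here give no age, floxed Piezo1 is common to all groups, and the macrophage label was not checked against markers because no library value was analysed.

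Histones package DNA into nucleosomes. Dimers of H2A with H2B and a tetramer of H3 with H4 form the core around which the DNA is wound, and H1 binds the linker DNA. Replication-dependent histone genes are transcribed mainly in S phase, when newly made DNA has to be packaged, and their typical mRNA has no intron and ends after a stem-loop rather than in a poly(A) tail. The stem-loop-binding protein SLBP holds that stem-loop during processing, export, translation and decay of the mRNA. Selection on poly(A) is known to recover such mRNAs poorly unless they carry a tail. Other histone genes, such as those for H2A.X and H3.3, are expressed outside S phase as well or only in certain tissues.

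The stem-loops are shown first because most members searched hold a form of this element in the 3′ UTR. There were 8 distinct forms in 46 members, and 1 member is printed for each form, read 5′ to 3′ on the strand of the gene from GENCODE M21 transcripts of GRCm38. Capitals mark the 16 bases of the stem-loop, and lower case gives 5 bases on each side.
Hist1h2ab: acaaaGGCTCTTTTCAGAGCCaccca
Hist1h1t: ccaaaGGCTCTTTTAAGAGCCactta
Hist2h2ac: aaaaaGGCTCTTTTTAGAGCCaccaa
Hist1h3g: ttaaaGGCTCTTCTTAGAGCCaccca
Hist1h4c: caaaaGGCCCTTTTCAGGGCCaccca
Hist1h4i: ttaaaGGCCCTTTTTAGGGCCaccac
Hist1h4b: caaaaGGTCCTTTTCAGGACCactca
Hist1h4a: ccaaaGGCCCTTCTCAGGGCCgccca
The plus strand holds the sites of Hist1h2ab (chr13:23751567-23751592), Hist1h1t (chr13:23696520-23696545), Hist1h3g (chr13:23535884-23535909) and Hist1h4b (chr13:23757361-23757386). The minus strand holds those of Hist2h2ac (chr3:96220413-96220438), Hist1h4c (chr13:23698084-23698109), Hist1h4i (chr13:22040961-22040986) and Hist1h4a (chr13:23760795-23760820). Every site lies in the 3′ UTR of its GENCODE M21 transcript.

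Among the members, the stem-loop of H4 genes differed from that of the other types at 1 base pair of the stem. All 12 H4 members with a match had C at position 4 of the 16 bases and G at position 13, and all 34 matched members of the other types had T and A there. The search left these inner positions free as long as they could pair. The form printed for Hist1h2ab was the commonest and occurred in 26 members, namely 3 H1, 10 H2A, 8 H2B and 5 H3 genes. The form of Hist1h4c occurred in 7 members, all H4. The form of Hist1h1t occurred in 6 members (1 H1, 2 H2B and 3 H3 genes). The forms of Hist1h4i and Hist1h4b occurred in 2 H4 members each, and the remaining 3 forms in 1 member each. Position 5 was C in all 46 members although the search did not fix it, and the fourth loop base, at position 10, was C in 36 members, A in 6 and T in 4.

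The members lay in few places. Neighbouring members at most 1 Mb apart were joined into clusters, which gave 6 clusters, or 8 when the limit was 100 kb. Chromosome 13 held both large clusters. The first ran from 21715763 to 22043676, spanned 327.9 kb and held 23 members (1 H1, 7 H2A, 8 H2B, 2 H3 and 5 H4 genes). The second began 1.49 Mb further along, ran from 23531050 to 23934851, spanned 403.8 kb and held 31 members (5 H1, 6 H2A, 7 H2B, 7 H3 and 6 H4 genes). Every H1 gene of the rule was therefore on chromosome 13. The 2 clusters held 11 and 18 members on the plus strand and 12 and 13 on the minus strand.

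Other coding genes lay between the members. The first cluster enclosed Pom121l2, Prss16 and Zfp184. The second enclosed Trim38, 4 genes of the Slc17a family (Slc17a1 to Slc17a4) and Hfe, the haemochromatosis gene. Chromosome 3 held a cluster of 10 Hist2h members over 50.3 kb, from 96219865 to 96270132. On chromosome 11, Hist3h2ba and Hist3h2a lay within 7.9 kb (58948920 to 58956830) beside Trim17. Hist4h4 stood alone on chromosome 6 (136801553 to 136804431).

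Hist1h2al (chromosome 13, 51202688 to 51203065) stood 27.3 Mb from the second cluster. It has no annotated start codon and 375 coding bases, the fewest of any H2A member, and it was not found by name in GENCODE M21. Genes of other biotypes with a matching name were the unprocessed pseudogene Hist1h2aj, the processed pseudogene Hist3h2bb-ps and a lincRNA gene (ENSMUSG00000050936) that has the name Hist2h2bb, as a coding member (ENSMUSG00000105827) also does. Counting these raises the total from 68 to 71.

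**Figure D1:**
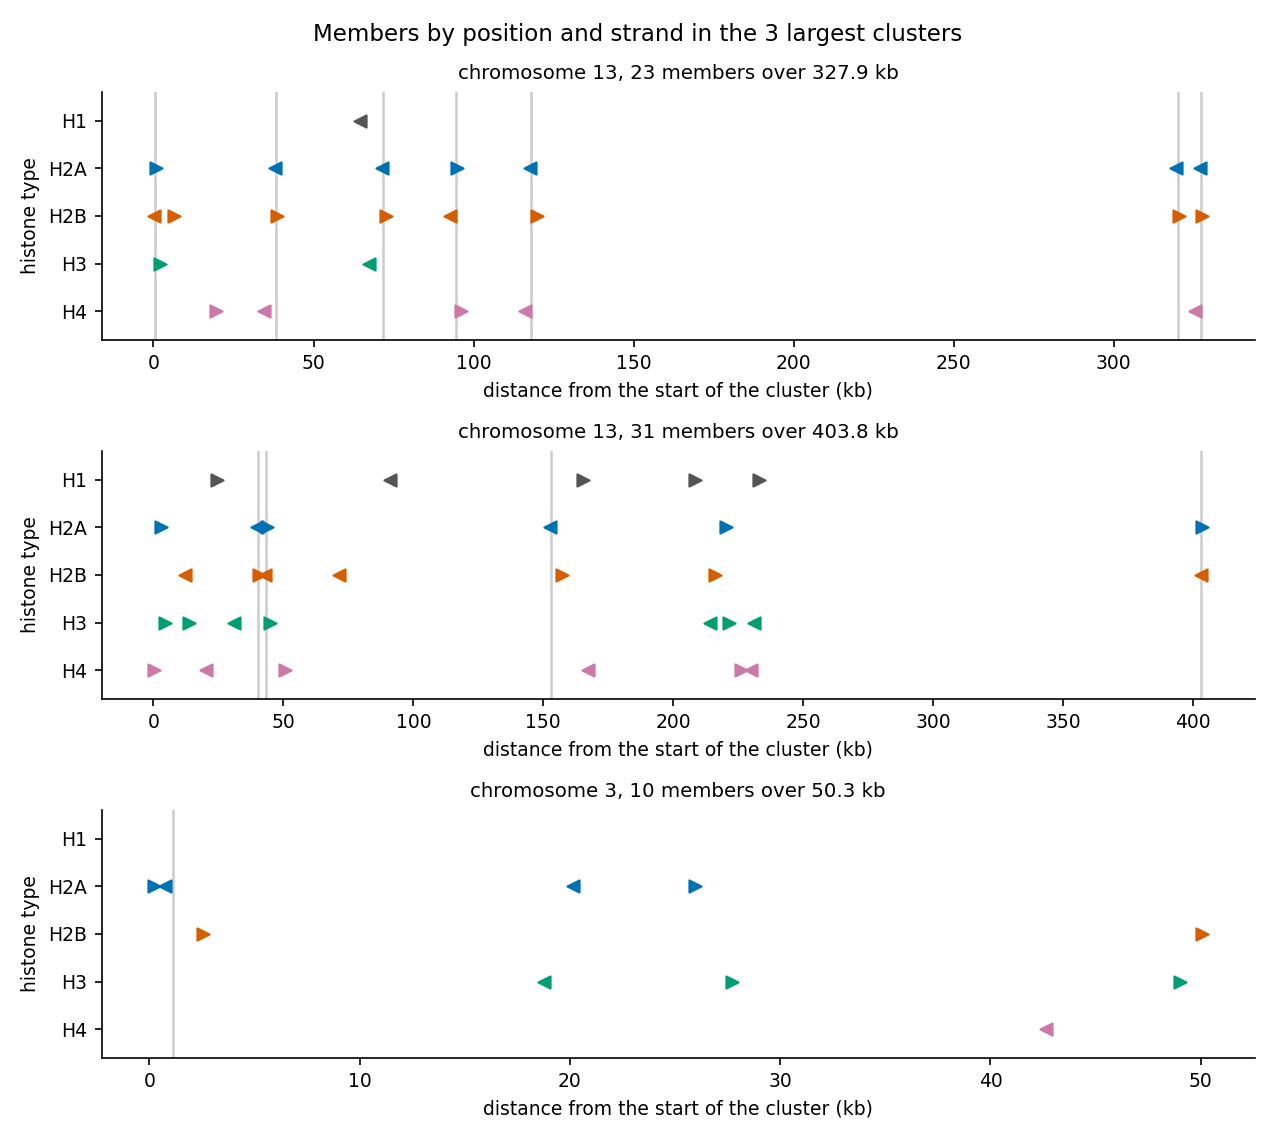
Position of the members in the 3 largest clusters, with distance from the start of the cluster in kb on the x axis and histone type on the y axis. Triangles point right for the plus strand and left for the minus strand, and grey lines mark the divergent H2A and H2B pairs. A grey line stands at 7 places in the first cluster, 4 in the second and 1 on chromosome 3.

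H2A and H2B genes, whose products form a dimer, were arranged head to head. A divergent pair was defined as neighbouring members on opposite strands whose 5′ ends face each other within 1 kb. There were 12 such pairs, and all 12 joined an H2A gene to an H2B gene. They held 24 of the 68 members (35.3%), while 6.81% of all protein-coding genes face a protein-coding neighbour in this way. Of the pairs, 11 were on chromosome 13 and 1, Hist2h2ac with Hist2h2be, was on chromosome 3. The H2A gene was on the minus strand in 8 of the 12.

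The spacing within pairs was narrow. The annotated starts were 235 to 305 bases apart, with a median of 273.5 bases. The closest were Hist1h2ap and Hist1h2br, whose starts lay at 21833507 and 21833743. The widest were Hist1h2ba and Hist1h2aa at 305 bases, the pair whose products are known as the testis forms of H2B and H2A. Measured between start codons, which do not depend on where a 5′ UTR was annotated to begin, the distances ran from 278 to 334 bases with a median of 299. By that measure other pairs were closest (Hist1h2bl with Hist1h2ai, 278 bases) and widest (Hist1h2ah with Hist1h2bk, 334 bases). Hist1h2ap with Hist1h2br lay at 295 bases. Hist1h2ba and Hist1h2aa, each with 0 bases of annotated 5′ UTR, stayed at 305 bases. Between annotated starts, no pair of members lay between 305 and 1107 bases. At up to 5 kb there were 4 further pairs, of H2B with H3 (1107 and 1288 bases), H1 with H3 (1330 bases) and H1 with H4 (3438 bases).

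Pairing left out 7 H2A and 6 H2B members. On chromosome 13 these were Hist1h2ab, Hist1h2af, the isolated Hist1h2al, Hist1h2bb, Hist1h2be, Hist1h2bh and Hist1h2bm. Hist2h2aa1, Hist2h2aa2 and Hist2h2bb on chromosome 3, and both Hist3h genes on chromosome 11, had no partner either. Hist2h2ab faced Bola1, which is no histone gene, at 155 bases.

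Most members were single-exon genes. All transcripts of 63 of the 68 members (92.6%) had 1 exon, compared with 11.4% of all protein-coding genes. The members made up 2.5% of the 2525 single-exon coding genes in the file. Every H1, H2A, H3 and H4 gene was among the 63, so the 5 spliced members (Hist1h2bc, Hist1h2be, Hist1h2bp, Hist1h2bq and Hist1h2br) were all H2B genes. The same 5 genes were spliced in GENCODE M21.

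Splicing placed the extra exons at different ends of the message. Hist1h2be-001 had a first exon of 209 noncoding bases, an intron of 34949 bases and a second exon of 2224 bases that held all 378 coding bases. In the other 4 genes the extra exons lay 3′ of a first exon that held all or nearly all of the usual reading frame. Hist1h2bc-001 carried its 378 coding bases, the stop codon and 9 more bases in exon 1, followed by an intron of 7554 bases and an exon of 313 bases.

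In 3 H2B genes a transcript had a first exon that ended 1 base short of the usual 378 coding bases. Exon 1 of Hist1h2bp-002, Hist1h2bq-201 and Hist1h2br-201 held 377 coding bases each. The frame went on in exon 2 for 37 bases in Hist1h2bp and 25 bases in Hist1h2bq and Hist1h2br. The annotated products had 138 codons in Hist1h2bp-002 and 134 codons in Hist1h2bq-201 and Hist1h2br-201, 12 and 8 more than the 126 of 14 other H2B members. Each of these genes also had a transcript with 378 coding bases. That of Hist1h2bp had 1 exon, while those of Hist1h2bq and Hist1h2br had 3 exons, with the stop codon at the very end of exon 1 and 0 bases after it in that exon. GENCODE M21 classes both 3-exon transcripts as nonsense-mediated decay, and the deposited file classes them as protein-coding. The deposited file gives these 2 transcripts a support level of 5, and the other spliced coding transcripts a level of 1, the best supported.

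Length added without splicing was seen in other members. A transcript of over 1 kb was annotated in 10 members, and 7 of them had a single exon. These were Hist1h1c (1560 bases), Hist2h2be (2620), Hist2h3c1 (1820), Hist2h3c2 (1020), Hist2h4 (1630), Hist3h2a (2146) and Hist4h4 (2879). In the deposited file only Hist1h1c of these was from chromosome 13, although that chromosome holds 55 of the members. The 3 spliced members over 1 kb there were Hist1h2be, Hist1h2bq and Hist1h2br. GENCODE M21 gave single-exon transcripts of over 1 kb to further members of chromosome 13. They were Hist1h1d (7425 bases), Hist1h1e (1930), Hist1h2ac (2482), Hist1h2bh (1679), Hist1h3d (1249), Hist1h3f (1261) and Hist1h4d (1138). The share of all protein-coding genes with a transcript of over 1 kb was not counted in either annotation.

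Coding length was nearly fixed within each core histone type. The chosen transcript of a gene was the protein-coding one with the longest coding sequence, counted without the stop codon. All 13 H4 members had 309 coding bases and all 12 H3 members had 408. Of the 19 H2A members, 15 had 390 bases, Hist1h2aa and Hist2h2ac had 387, Hist1h2ah had 384 and Hist1h2al had 375. Of the 18 H2B members, 14 had 378 bases, Hist1h2ba had 381, and the extended frames above gave 402 or 414. The 6 H1 members had 6 different lengths, from 627 bases in Hist1h1t, the testis H1, to 669 in Hist1h1b. The median over all protein-coding genes was 1164 bases, and over single-exon ones 930.

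Untranslated regions were short beside those of all coding genes, and in some members they were missing from the models. The median 5′ UTR was 23 bases for H1, 7 for H2A, 16.5 for H2B, 26.5 for H3 and 32 for H4. Over all protein-coding genes it was 129 bases. The median 3′ UTR was 61 bases for H1, 57 for H2A, 72.5 for H2B, 93 for H3 and 80 for H4. The median was 580 over all protein-coding genes and 0 over single-exon ones, many of which have no annotated 3′ UTR. Over the members it was 75 bases, with 30 members between 30 and 120 bases. No 3′ UTR at all was annotated in 16 of the 68 members (23.5%), while 10.9% of all protein-coding genes had 0 bases there. All 16 were single-exon genes, and among the 2462 single-exon coding genes that are no members, 1366 (55.5%) had 0 bases, so the members lay between these backgrounds. Both UTRs were missing in 14 members, whose models begin at the start of the coding sequence and stop at the stop codon. In all, 20 members had under 16 bases, which is less than the length of a stem-loop.

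The longest 3′ UTRs by type were 880 bases in Hist1h1c, 1700 in Hist3h2a, 2192 in Hist2h2be, 1208 in Hist2h3c1 and 2515 in Hist4h4. The shortest were 0 bases in each type. That value was reached by Hist1h1a and Hist1h1b for H1, Hist1h3h and Hist1h3i for H3, Hist1h4k for H4, 6 H2A members and 5 H2B members. Within each type the lengths thus ran from 0 to 880 bases or more, while coding lengths moved little.

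These lengths depended on the annotation. The GENCODE M21 release, also on GRCm38, held 67 members by name. Its 3′ UTR was longer than in the deposited file for 18, shorter for 2 and equal for 47. The median rose to 555 bases for H1, 74 for H2A, 119.5 for H2B, 105 for H3 and 154 for H4. For H2A the set of genes changed too, from 19 members to 18, because Hist1h2al (0 bases in the deposited file) was not found. Coding length was the same in both for all members found except Hist2h3c1, whose longest frame went from 408 to 543 bases. The 3′ UTR of Hist1h1d went from 75 to 4931 bases, Hist1h2ac from 76 to 2058 and Hist1h2bh from 2 to 1258. The shorter ones were Hist1h2bq, which went from 1688 to 823 bases, and Hist1h4h, which went from 96 to 93. Some 5′ UTRs moved too, for example from 3 to 1828 bases in Hist1h1d and from 201 to 66 in Hist2h3c1.

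**Figure D2:**
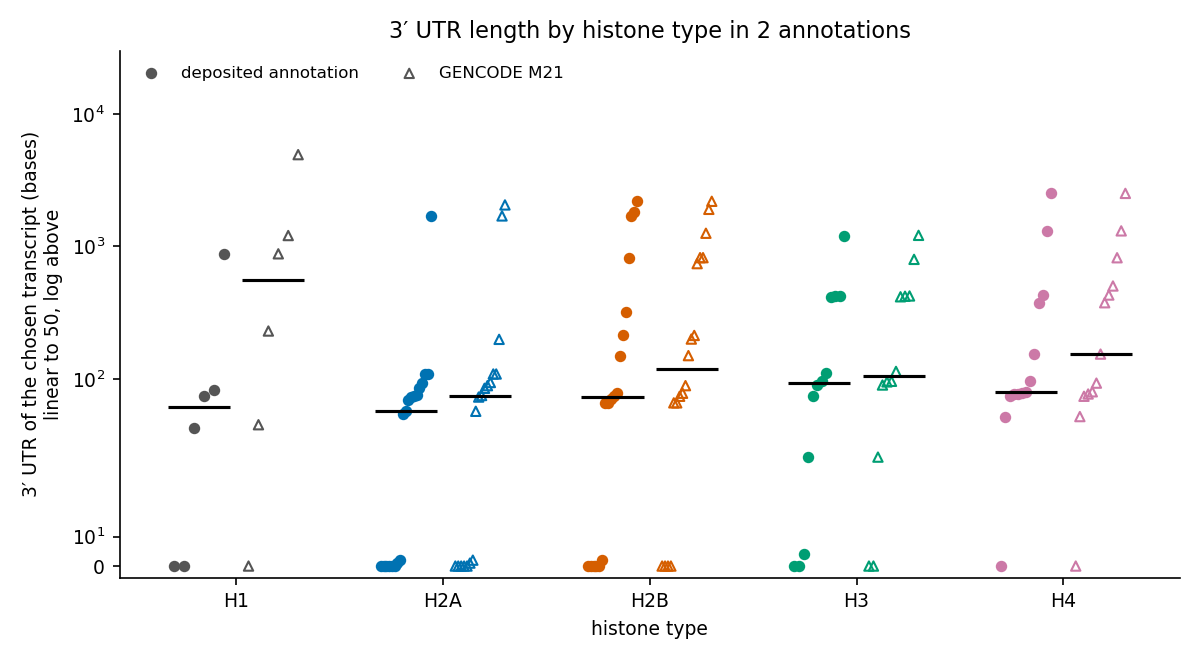
Length in bases of the 3′ UTR of the chosen transcript (y axis, linear to 50 and logarithmic above) by histone type (x axis). Filled circles show members in the deposited annotation, open triangles members in GENCODE M21, and black bars the medians. Each type has members at 0 and members above 500 bases in the deposited file, and the H1 median moves from 61 to 555 between annotations.

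The stem-loop itself lay at a short distance from the stop codon. The search read up to 150 transcript bases after the stop codon in GENCODE M21 for 2 G, 3 free bases, T, a loop of 4 free bases, A, 3 bases that pair with the first 3 (G with T allowed) and 2 C. It could be run on 52 members, and 46 (88.5%) matched, while 0.487% of 20965 protein-coding genes searched the same way did. Those 102 matches comprised the 46 members and 56 other genes. Among the other genes only H2bfm, an H2B family gene on chromosome X, carried a stem-loop with the same 16 bases as a member.

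Between 21 and 58 bases separated the stop codon from the stem-loop, with a median of 31. By type the medians were 30 bases for H1, 38 for H2A, 28 for H2B, 31 for H3 and 33 for H4. The H2B distances were the most uniform, from 27 to 32 bases in 10 members. The nearest was in Hist2h2ac and the farthest in Hist2h2aa1 and Hist2h2aa2.

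No match was found in 6 searched members. Hist1h2bc, Hist1h2bq and Hist1h2br are spliced H2B genes whose spliced transcripts leave exon 1 at or near the stop codon, and the single-exon transcripts of Hist1h2bq and Hist1h2br in GENCODE M21 end at it, with 381 bases each. The single-exon gene Hist2h2be had 2192 bases of 3′ UTR and no match in the first 150 or in the first 500. Hist1h1a had 48 bases and Hist2h3b 37 bases in which to look. No match says only that the pattern is not in the stretch searched. A further 15 members had under 16 bases after the stop codon in GENCODE M21, so nothing could be searched.

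Annotated transcripts mostly did not stop at the stem-loop. The processing factors are known to cut a few bases after it. In GENCODE M21, the transcripts of Hist1h2ap and Hist1h4m ended 3 bases after the stem-loop, and 44 of 46 ended more than 10 bases after it. For those 44 the extra length ran from 11 bases in Hist1h2ab to 4884 in Hist1h1d, with a median of 129.5. The polyadenylation hexamer AATAAA occurred in the last 50 bases of 10 of the 44 and in neither of the 2 that end at the stem-loop. AAAGAG is a purine-rich match to the element that U7 snRNA pairs with. It occurred within 30 bases after the stem-loop in 9 of the 38 transcripts long enough to look. Neither AATAAA nor AAAGAG was counted over all coding genes, and 2 transcripts are too few for a contrast.

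In the deposited file the transcript held the whole stem-loop in 43 of the 46 members. It ended before the stem-loop in Hist1h2bh, Hist1h2bm and Hist1h3g. It ended at most 10 bases after it in 4 members, namely Hist1h1t, Hist1h2ae, Hist1h2ap and Hist1h4m. For Hist1h2bp the stem-loop lay in the single-exon transcript Hist1h2bp-001, and in the spliced Hist1h2bp-002 that stretch is intron.

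**Figure D3:**
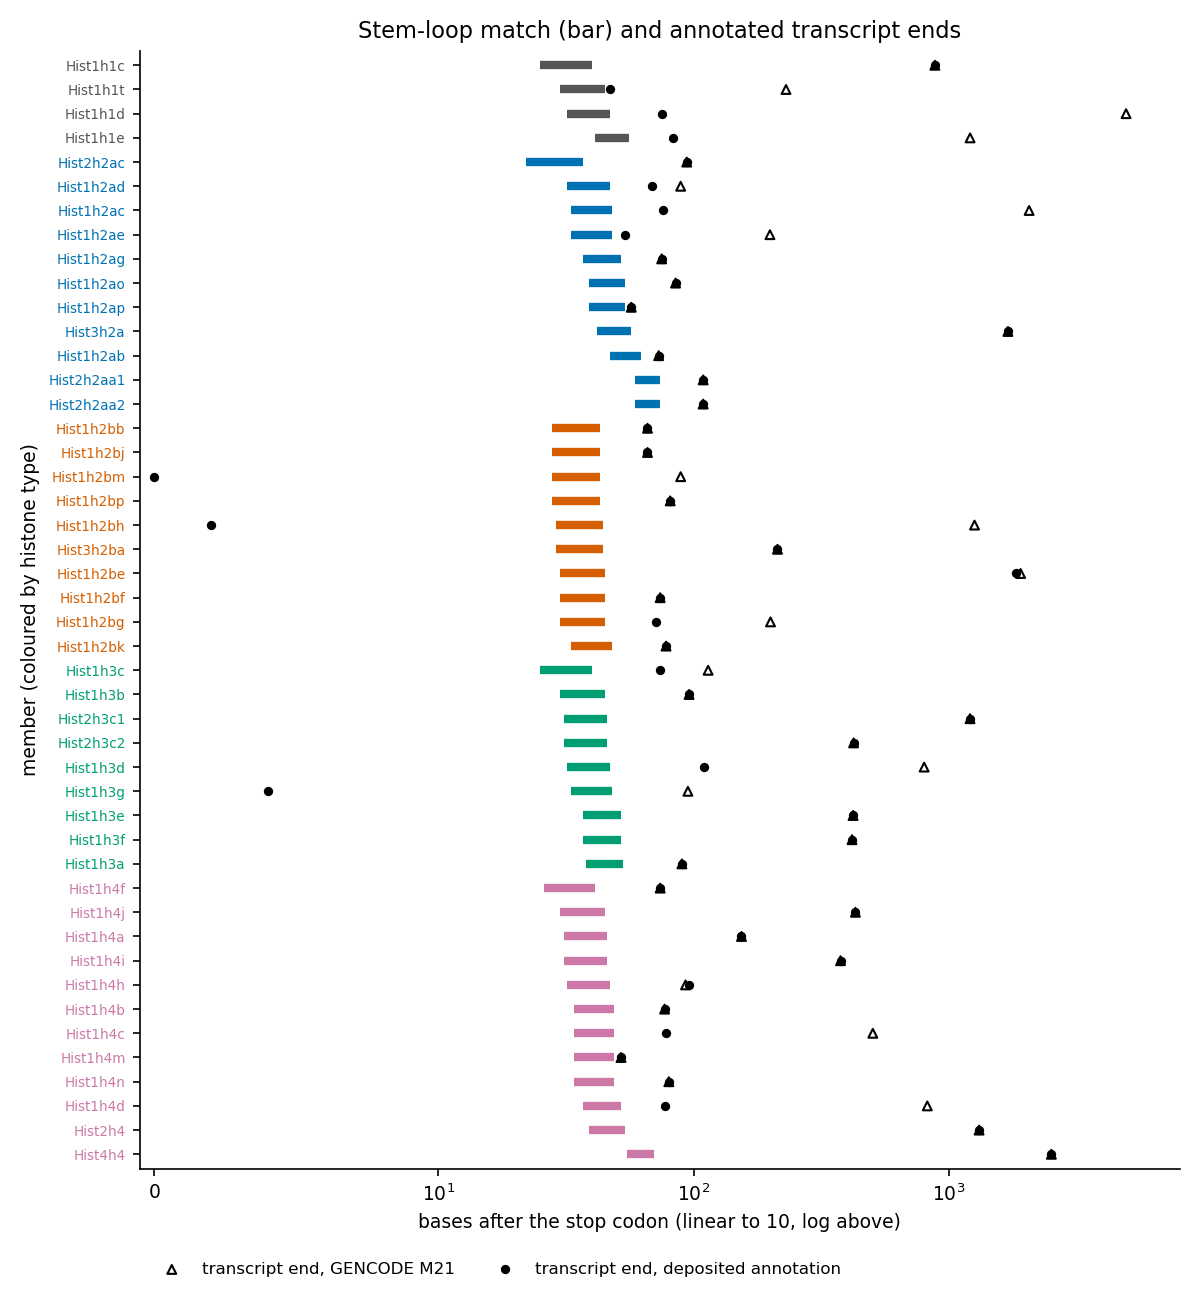
Position of the stem-loop (coloured bar) in each of the 46 matched members, in bases after the stop codon (x axis, linear to 10 and logarithmic above), with 1 member per line coloured by histone type. Black circles mark the transcript end in the deposited annotation and open triangles the end in GENCODE M21. The bars begin 21 to 58 bases after the stop codon, whereas the ends run from 0 to 4931 bases.

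Replacement and variant histone genes gave a contrast in structure. Of 14 such genes, all found, 6 had a single exon and none had a 3′ UTR of 0 bases. Their 3′ UTRs ran from 63 to 2245 bases with a median of 720.5. H2afx, which encodes the H2A.X phosphorylated at DNA breaks, was the only one of the 14 with a stem-loop. It is a single-exon gene on chromosome 9 with 429 coding bases. Its stem-loop lay 46 bases after the stop codon and had C at position 4 and G at position 13, as in the H4 members. The GENCODE M21 transcript went on for 822 bases beyond the stem-loop. A list of 12 genes for factors of histone mRNA synthesis, processing and decay held 0 single-exon genes, with a median of 12.5 exons, and 0 of the 12 had a stem-loop. They included Slbp with 8 exons, the U7 snRNP proteins Lsm10 with 2 exons and Lsm11 with 4, the endonuclease gene Cpsf3 with 18 and Npat, the coactivator of histone transcription, with 18.

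By median identity, coding sequences of the core histones differed more than their proteins. For each member, the GENCODE M21 transcript with the fewest exons, and then the shortest frame, was translated, so Hist1h2bp, Hist1h2bq and Hist1h2br entered with 126 codons and Hist2h3c1 with 136. This gave 1 product for all 13 H4 members from 12 distinct coding sequences. Pairs of H4 genes were identical at 85.4% to 100% of coding bases, with a median of 93.9%. The 12 H3 members gave 2 products, one of 8 genes that included the Hist2h3 genes and one of 4 (Hist1h3a, Hist1h3g, Hist1h3h and Hist1h3i). The 18 H2A members gave 9 products, the commonest from 9 genes, and the 18 H2B members gave 11, the commonest from 6 genes. Between members of equal length, median coding identity was 96.7% in H2A, 97.4% in H2B and 97.2% in H3. For the proteins it was 99.2%, 98.4% and 100%. Some H2B pairs went the other way, such as Hist1h2bc with Hist1h2bp (97.9% of coding bases and 97.6% of residues). With the longest frame of each gene instead, Hist2h3c1 (181 codons) made a further H3 product, which gave 3, and H2B gave 12 products with the commonest from 4 genes. All 6 H1 products differed, and no H1 genes had coding sequences of equal length to compare.

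At the length of a read, much of this sequence was not particular to 1 gene. Windows of 75 bases, the read length of the study, were compared with all GENCODE M21 transcripts on both strands. At least 1 window was shared with another gene in 62 of 67 members, compared with 49.3% of 21919 protein-coding genes of GENCODE M21. Over 50% of windows were shared in 31 members, compared with 7.62% of those genes. With another member, 58 shared at least 1 window and 27 over 50% of their windows. The median share was 71.5% for H2A, 59% for H3, 42.1% for H2B, 24.6% for H4 and 0.75% for H1. A count assigned to a member with a large share is uncertain, since such reads match several genes.

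Hist2h2aa1, Hist2h2aa2, Hist2h2bb, Hist2h3b and Hist2h3c1, all on chromosome 3, shared 100% of their windows. For 4 of these, all but Hist2h2aa2, the share with other members alone was below 100%. Hist2h2bb shared 0 windows with other members and all 307 with Gm20628. Hist2h3c1 shared 592 of 1751 windows with members and all 1751 with Gm20634. Gm20628 and Gm20634 are annotated over the same exons, so these shares also count 1 locus annotated as several genes. Hist1h2bq shared 96.1%, and all 1936 of these windows also occur in Hist1h2br, which has the same extended frame. The members without any shared window were Hist1h1a, Hist1h1b, Hist1h1t, Hist2h2be and Hist2h4.

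**Figure D4:**
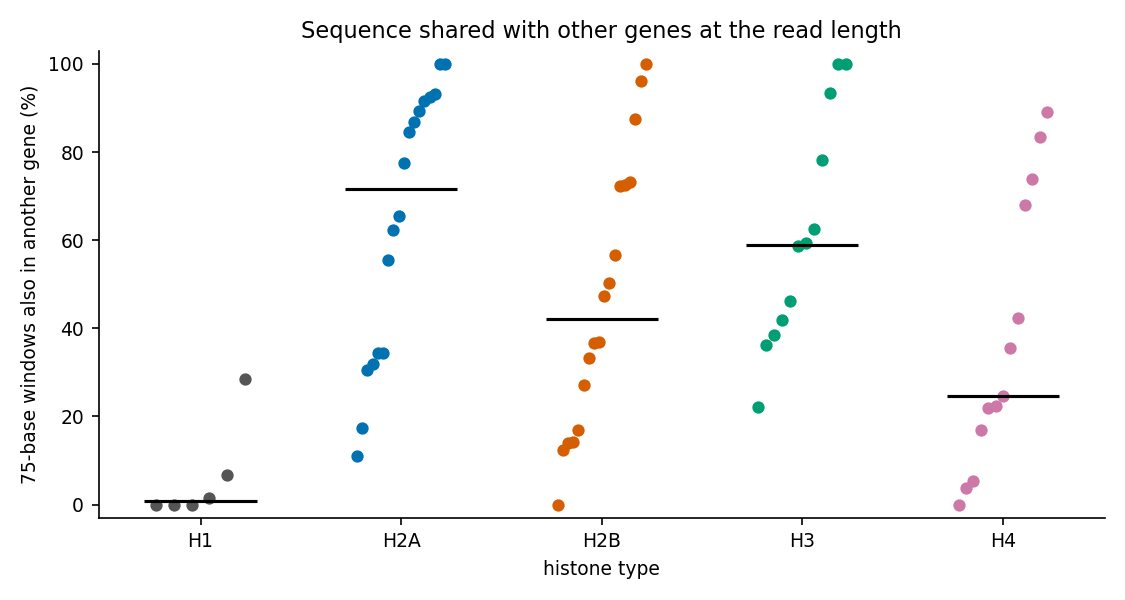
Share of the 75-base windows of each member that also occur in another gene on either strand (y axis, percent) by histone type (x axis). Points are members and black bars are medians, which fall from 71.5% in H2A to 0.75% in H1. There are 5 points at 100%, from the H2A, H2B and H3 types.

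Other annotated genes lay over the members. Exons of 24 of the 68 members (35.3%) shared at least 1 base with another gene, compared with 24.4% of all protein-coding genes. The overlap was on the opposite strand in 22 members and on the same strand in 5. Of the 24 members, 18 overlapped a gene of biotype miRNA, and all 18 were H2A genes. The share without that biotype was not counted. Without a stated strand setting, reads from genes that overlap on opposite strands cannot be told apart.

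An overlapping miRNA gene was found in H2A members only. In 18 of the 19 H2A members, a gene of biotype miRNA overlapped the exon from the opposite strand by 129 to 144 bases, and no member of another type had one. Of all protein-coding genes, 1.42% overlap a miRNA gene. These genes carry clone-based names and not the name of a known mouse miRNA, and all 18 identifiers were still of biotype miRNA in GENCODE M21. They lay at nearly the same place in each H2A frame, starting at coding base 204 to 246 and ending at base 344 to 389, and 17 of 18 were wholly inside the coding sequence. H2A coding sequences are themselves much alike. The exception, Hist2h2ab, overlapped the antisense gene Gm15444 by 303 bases.

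The remaining overlaps were mostly on chromosome 3. Antisense genes covered 100% of the exon of Hist2h2aa1 (Gm20633), Hist2h2aa2 (Gm20632), Hist2h2bb and Hist2h3b (both Gm20628). Gm20634, a processed transcript on the same strand, covered all 1820 bases of Hist2h3c1. Trim17 shared 708 bases with Hist3h2a on the same strand. A transcribed pseudogene, Gm11398, shared 320 bases with Hist1h2be, and 4930558J22Rik shared 223 bases with Hist1h4b from the opposite strand.

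Promoter windows separated the types as well. RefSeq windows on GRCm38.p6, from 250 bases before to 50 after the start, were matched to 62 of the 68 members, all within 99 bases of the deposited start. Motifs were searched on both strands. CCAAT, the core of the sequence bound by NF-Y, was present in 53 of the 62 (85.5%), compared with 37.4% of all 32851 RefSeq windows. It was in all 6 H1, 18 H2A, 16 H2B and 10 H3 windows and in 3 of 12 H4 windows. In the 10 divergent pairs with both windows matched, these windows overlap. Any motif in the overlap is counted for both genes, so the H2A and H2B counts are not separate. TATAAA was in 35 windows (56.5%), compared with 13.6% of all, and every type had it in some members, from 40% of H3 to 66.7% of H1 and H4. Within 100 bases before the start TATAAA was found in 19 windows. The order of the types changed, with 4 of 6 H1 windows and 2 of 12 H4 windows. No motif was counted over all RefSeq windows at that length. On the strand of the gene, 15 of the 62 windows had TATAAA 20 to 60 bases before the start. That narrower stretch was not counted over all RefSeq windows either, so this count has no background beside it.

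The octamer ATTTGCAT, the site of the POU factor Oct-1, was limited to H2A and H2B windows among those matched. It occurred in 7 of 18 H2A and 6 of 16 H2B windows and in 0 of the 6 H1, 10 H3 and 12 H4 windows, and 1.74% of all RefSeq windows hold it. The H2A sites lay 119 to 200 bases before the RefSeq start, so with only the 100 bases before the start searched the octamer was in 0 H2A and 5 H2B windows. All 6 in H2B windows read in the direction of the H2B gene, and all 7 in H2A windows read against the direction of the H2A gene. In 3 divergent pairs 1 octamer fell inside the windows of both genes, so the 13 windows held 10 distinct sites. Those 3 are printed because each lies between an H2A and an H2B start and in both windows. They are read 5′ to 3′ on the strand of the H2B gene, with the octamer in capitals.
Hist1h2ba: gaattccccttATTTGCATgcacccagcac
Hist1h2bg: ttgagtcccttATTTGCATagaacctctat
Hist1h2bk: catttcactttATTTGCATacgaagttcta
The site of Hist1h2ba with Hist1h2aa lies on the minus strand at chr13:23934302-23934331. Those of Hist1h2bg with Hist1h2ae (chr13:23571330-23571359) and Hist1h2bk with Hist1h2ah (chr13:22035780-22035809) lie on the plus strand. Hist1h2bb, an H2B gene in no pair, had its octamer at chr13:23746633-23746662 on the plus strand, printed in the same way.
Hist1h2bb: ttgagtctcttATTTGCATaaagcctttga
Over the 15 comparisons among the 6 H2B sites, 12 to 24 of the 30 bases were the same, 8 of which are the octamer itself, and the 24 were shared by Hist1h2bb and Hist1h2bg. Of the 10 pairs with both windows matched, 7 held the octamer in neither window. Among all 12 pairs, 5 had an octamer between the annotated starts. The other 2, Hist1h2ac with Hist1h2bc (chr13:23684071-23684100) and Hist2h2ac with Hist2h2be (chr3:96221062-96221091), were seen in the H2A window only, since no RefSeq window was matched to their H2B genes. A match is a string of letters and does not show that a factor binds there.

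**Figure D5:**
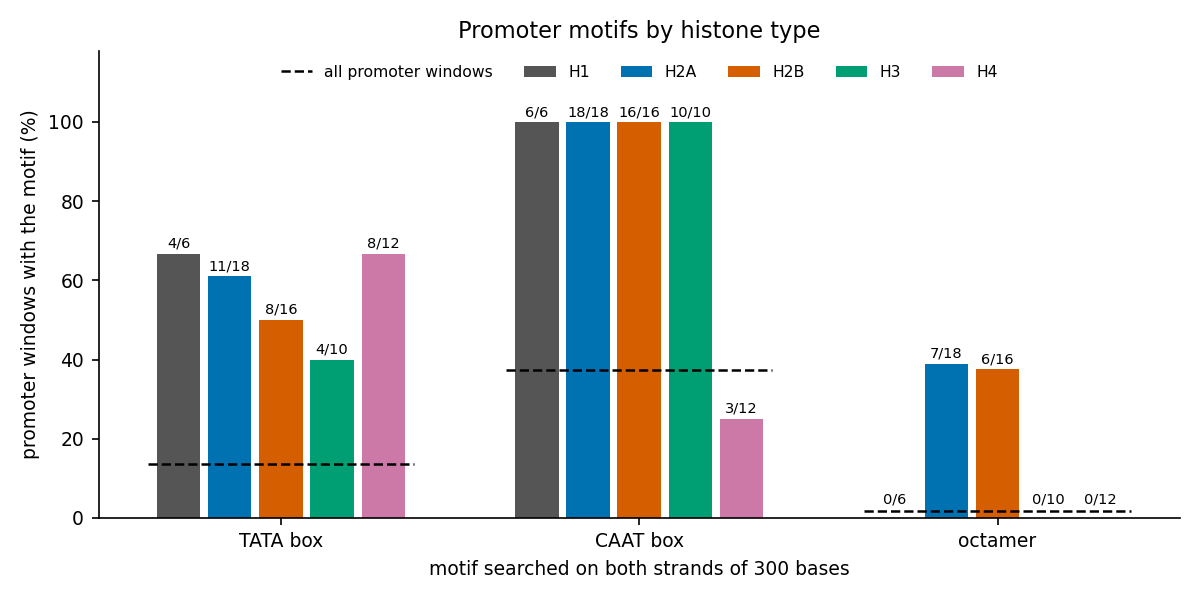
Share of RefSeq promoter windows of 300 bases with each motif on either strand (y axis, percent), by motif and histone type, with the number of windows with the motif over the number matched above each bar. Dashed lines give the share among all 32851 windows. The CAAT box bar is at 100% for 4 types and at 25% for H4, and the octamer bars are above 0 only for H2A and H2B.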

How the data were processed

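The deposited file is a gene annotation in GTF format whose coordinates are 1-based positions on GRCm38. No header or label names its release, and its score column holds only dots. Per the submitters' processing notes, the tools were TopHat2 and Bowtie2, Cufflinks, FastQC and CASAVA 1.8, with no role given, and the builds mm10 and GRCm38. Gene models were read with Python 3.11.15, and figures were drawn with matplotlib 3.10.9. The members and lists were chosen with earlier results of these data known. Named members were those with the longest and shortest 3′ UTR of each type, those spliced, without a stem-loop or outside chromosome 13, H2afx and the closest pair; others were chosen after their values were seen. No genome sequence was used: stem-loops, coding identity and shared windows come from GENCODE M21 transcripts, where the design had named genomic sequence for stem-loops, and promoter windows from RefSeq (GRCm38.p6), matched through older symbols within 5 kb. Products were translated with Biopython 1.88. The functions were tested on 400 simulated gene models, and all 400 gave the right answer in each check. There are no library values, so depth is unknown and no error or p-value is given.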

Additional observations from a re-analysis of the deposited data

How the results depend on the processing

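Of 37 alternatives, 29 left the value within 1.5 times of the reported count or unchanged, and 8 moved it. With GENCODE M21 in place of the deposited annotation the median 3′ UTR was 555 bases for H1, 74 for H2A, 119.5 for H2B, 105 for H3 and 154 for H4. Hist1h2al did not enter that H2A value. Taking all protein-coding transcripts moved the H2B median to 79.5. With only the 100 bases before the start searched, TATAAA was found in 19 members and ATTTGCAT in 5 (0 H2A and 5 H2B). For the M21 medians the cause was not tested; the shorter promoter window has fewer bases to search, and taking all transcripts counts H2B genes with more than 1 transcript more than once. Clusters numbered 6 or 8, divergent pairs 12 or 16, single-exon members 63 or 62 and members sharing windows 62 or 63 (windows of 50 bases), and 46 members had a stem-loop in every window tried, with 1 unpaired inner position allowed too. The count in GENCODE M21 (67 members), the pairing by start codons (12 pairs) and the longest M21 frame for products (3 for H3, 12 for H2B) were chosen after seeing the data. No paired analysis was possible because the result comes from gene models and every group consists of a single library.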
